A study of Homo sapiens with 83 samples.

Results

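The nuclear pore and karyopherin transport genes were followed here in human neuroblastoma cells in which an N-MYC fusion protein was switched on. They were taken by name: the numbered nucleoporins (NUP), the importin alpha adaptors (KPNA), the import receptors of the importin beta family (KPNB1, IPO and TNPO), the exportins (XPO and XPOT), and the genes of the Ran cycle with its binding proteins (RAN, RANBP1, RANBP2, RCC1 and NUTF2), with pseudogene names left out. A gene also needed a mean of at least 1 TPM, a share of a library's transcripts scaled by length, in either line. Of 52 gene IDs with such a name, 50 passed, out of 15942 genes at that level and 60237 genes in the deposited table. KPNA7 and NUP210L did not reach the level. NUP62CL was under it in SHEP and NUP210 was under it in SKNAS. Within a line each was tested only where it reached the level, and in fits over both lines, which both entered through the line where they are high, their values are given as a description.

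Poly-A RNA had been sequenced from 83 libraries of 2 neuroblastoma lines, SHEP and SKNAS, both carrying N-MYC-ER, that is N-MYC fused to an estrogen receptor domain and expressed at all times. MYC-ON cells received 4-hydroxytamoxifen (4OHT), which lets the fusion enter the nucleus, and MYC-OFF cells received ethanol vehicle; all cells then received dexamethasone, and CT (circadian time) is the number of hours since then. SHEP had 2 replicate time series per condition, each sampled every 4 h from CT24 to CT76 (28 MYC-OFF and 28 MYC-ON libraries), and SKNAS had 1 series per condition, from CT24 to CT76 in MYC-OFF (14 libraries) and from CT24 to CT72 in MYC-ON (13 libraries). Every group carries the fusion gene, the drug and the activity of N-MYC-ER cannot be told apart, each line is a single engineered culture, and the time points of a series come from a shared culture experiment, so p-values over libraries measure the spread between these libraries.

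TPM is scaled by length, so levels can be compared between genes. Each library summed to 1000000 TPM, so every level is relative to the rest of its library. The paper gives an average number of reads per sample, and the number behind each library is unknown. The median of log2(TPM + 1) over genes was even in SHEP (3.93 to 4.17) and uneven in SKNAS, where it ran from 2.97 to 4.38 in MYC-OFF and from 2.76 to 4.25 in MYC-ON. It was under 3.3 in 3 SKNAS MYC-OFF libraries (CT56, CT64 and CT72) and in 4 SKNAS MYC-ON libraries (CT24, CT56, CT68 and CT72). The SKNAS counts of members are therefore given with and without them, and those of other gene lists only with them. Among adrenergic neuroblastoma markers, PHOX2A, ISL1, TH, DBH and CHGA had a mean under 1 TPM in SHEP, and in SKNAS TH and DBH did in both conditions and CHGA in MYC-ON. Of 10 mesenchymal markers, PRRX1 was under 1 TPM in SHEP MYC-OFF and NOTCH2 in both SKNAS groups, and the other markers were above it. In bulk RNA, fewer cells of a type and less RNA per cell cannot be told apart.

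Traffic between nucleus and cytoplasm passes through nuclear pore complexes, which are built from rings of scaffold nucleoporins, a channel lined with phenylalanine-glycine repeats, cytoplasmic filaments and a nuclear basket. Import receptors bind cargo in the cytoplasm and release it when they meet RAN in its GTP form inside the nucleus, whereas exportins bind cargo together with RAN-GTP and release it outside. RCC1 on chromatin charges RAN with GTP, RANBP1 and RANBP2 help to discharge it in the cytoplasm, and NUTF2 carries RAN-GDP back. MYC proteins bind the E-box CACGTG as heterodimers with MAX and are known for raising genes of growth and biosynthesis.

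The E-box was looked for in the promoter windows of the members, from 250 bases before to 50 bases after the start of the gene as given by RefSeq on GRCh38.p14. Of the 50 members, 44 had a window, and 7 of these (15.9%) held CACGTG: RAN, KPNA3, IPO4, IPO7, NUP50, NUP188 and TNPO2. The motif is its own reverse complement, so both strands were read at once. It stood in 7.43% of all 27305 windows and in 10.2% of the 10282 windows of genes tested in SHEP. The 250 bases upstream of the start are shown for 4 members whose levels the results below turn on, 5′ to 3′ on the gene's strand, with CACGTG in capitals. RAN (chr12:130871816-130872065, plus strand) was the most abundant member, KPNA3 (chr13:49792683-49792932, minus strand) had the largest difference among the importin alpha genes of SHEP, IPO4 (chr14:24188817-24189066, minus strand) was the member that was lower in both lines, and NUP93 (chr16:56729879-56730128, plus strand) was higher in both lines and held no such motif.

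RAN: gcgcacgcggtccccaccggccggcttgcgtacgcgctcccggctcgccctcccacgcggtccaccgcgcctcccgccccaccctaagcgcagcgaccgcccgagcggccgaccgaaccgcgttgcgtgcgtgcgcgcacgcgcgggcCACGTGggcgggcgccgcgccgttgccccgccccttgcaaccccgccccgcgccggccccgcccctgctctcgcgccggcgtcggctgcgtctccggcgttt

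KPNA3: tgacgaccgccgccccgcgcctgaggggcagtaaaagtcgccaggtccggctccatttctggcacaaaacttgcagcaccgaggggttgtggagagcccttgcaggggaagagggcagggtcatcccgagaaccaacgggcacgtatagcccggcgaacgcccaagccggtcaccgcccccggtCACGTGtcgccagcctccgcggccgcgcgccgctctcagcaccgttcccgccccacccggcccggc

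IPO4: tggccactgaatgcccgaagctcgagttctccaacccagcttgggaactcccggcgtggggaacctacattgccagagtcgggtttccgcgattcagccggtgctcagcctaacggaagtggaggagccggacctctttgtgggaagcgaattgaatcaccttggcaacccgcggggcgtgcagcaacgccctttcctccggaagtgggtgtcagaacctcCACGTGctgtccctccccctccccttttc

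NUP93: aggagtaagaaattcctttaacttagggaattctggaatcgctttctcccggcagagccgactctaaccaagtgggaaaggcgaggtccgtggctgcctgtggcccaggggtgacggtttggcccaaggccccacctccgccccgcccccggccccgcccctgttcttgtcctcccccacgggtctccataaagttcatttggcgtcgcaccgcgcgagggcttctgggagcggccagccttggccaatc

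Counted back from the start, the motif began at base -102 in RAN, at -66 in KPNA3 and at -29 in IPO4. Of the 7 members with the motif, 4 were higher and 1 was lower in MYC-ON, and their median difference was 0.39 on the log2(TPM + 1) scale. Of the 36 tested members with a window and no motif, 26 were higher and 1 was lower, and the median was 0.30. Both sets thus held higher and lower genes. Among all genes tested in SHEP that had a window, 399 of 1048 with the motif and 2986 of 9238 without it were higher. These gene counts sum to slightly more than the 10282 windows given above, and the reason was not traced. A match describes letters in a window, not binding.

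Active N-MYC-ER went with higher RNA of most transport genes in SHEP. Of 49 members tested, 33 were higher in MYC-ON, where 33.0% of all 14362 genes were called higher, and 2 were lower, where 38.9% of all genes were. A call required an adjusted p up to 0.05 together with a log2 difference of 0.15 or more, from limma on log2(TPM + 1) with CT as a factor, and adjusted by Benjamini-Hochberg over all genes tested; differences are given as MYC-ON minus MYC-OFF with their SE. The median difference was 0.29 over the members and -0.036 over all genes. At a difference of at least 0.66, 9 members were higher, against 9.39% of all genes, and IPO4 alone was lower, against 11.4%. In 8 members (RAN, RCC1, NUP93, NUP54, NUP37, NUP210, XPO5 and XPO6), every MYC-ON library lay above every MYC-OFF library, where 6.11% of all genes separated in this way, and no member separated in the other direction, where 6.36% did. The 2 lower members were IPO4 and NUP62, and the call for NUP62 was lost when libraries were rescaled, when the library median entered the fit, over series means and without the second series.

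**Figure D1:**
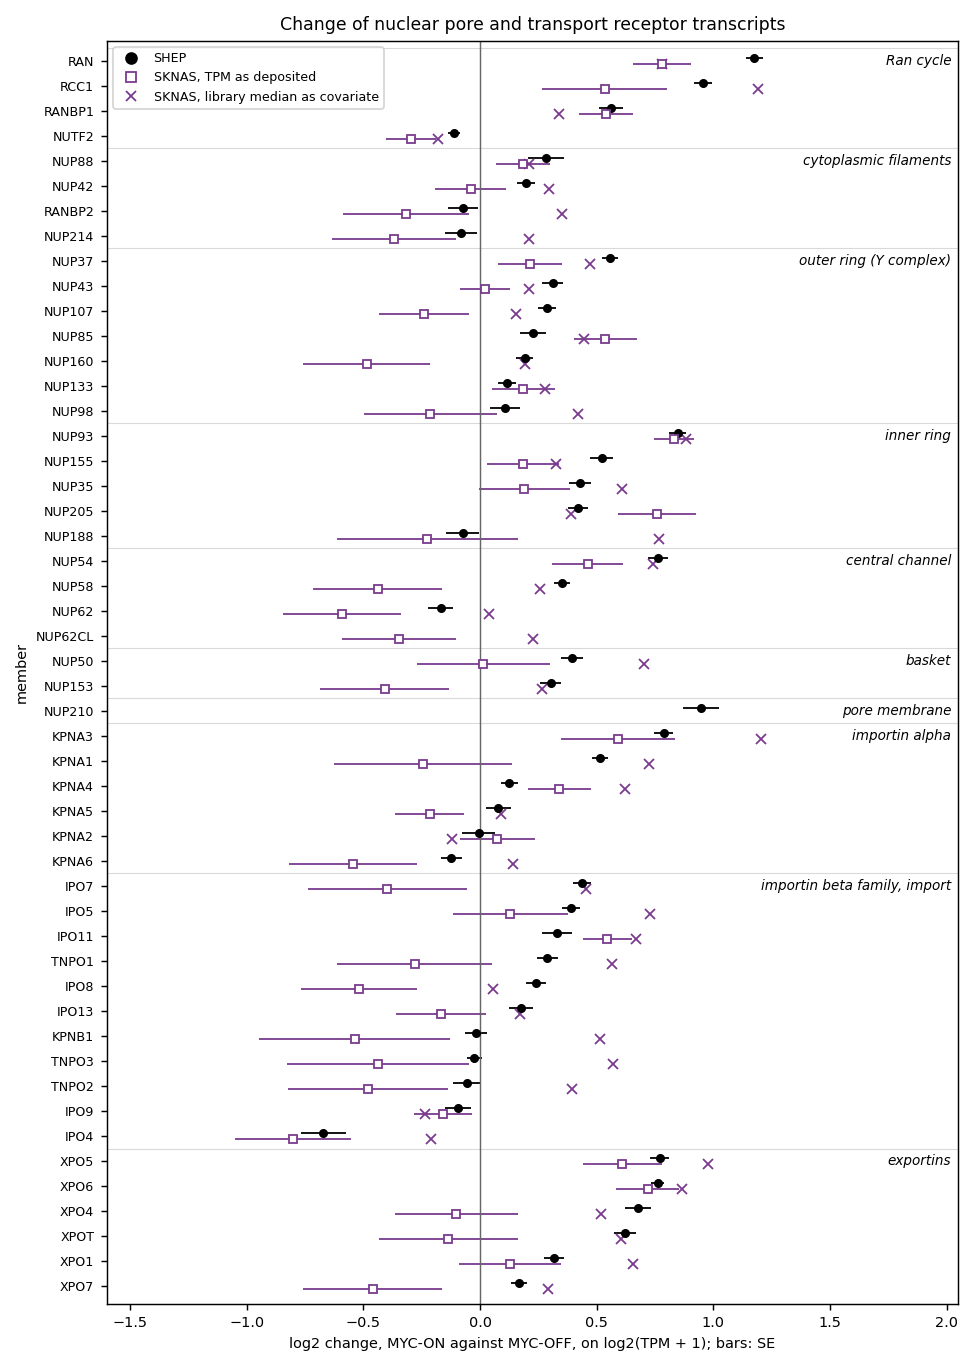
Log2 change of each nuclear pore and transport gene, MYC-ON against MYC-OFF on log2(TPM + 1), by role; filled circles are SHEP with SE bars, open squares SKNAS with SE bars and crosses SKNAS with the library median as a covariate. RAN is at 1.18 in SHEP and 0.78 in SKNAS, the 6 exportins of SHEP all lie right of 0, and many SKNAS crosses lie right of their squares.

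The Ran cycle, with RANBP2 described below among the cytoplasmic filaments, was higher in 3 of its other 4 genes, where 33.0% of all genes were. RAN, the GTPase that gives transport its direction, had lowest, median and highest levels of 604, 664 and 824 TPM in MYC-OFF and 1209, 1542 and 1860.2 TPM in MYC-ON. All 28 pairs of libraries matched by CT and series were higher in MYC-ON, and the difference was 1.18 ± 0.036, adjusted p = 1.17e-30. RCC1, the exchange factor that charges RAN on chromatin, was at 52.5, 62.3 and 72.4 TPM in MYC-OFF and 91.9, 122 and 147 TPM in MYC-ON. Its groups did not overlap either, with a difference of 0.95 ± 0.039, adjusted p = 5.05e-26. RANBP1, which helps to release RAN-GTP from receptors in the cytoplasm, was at 214, 235 and 273 TPM in MYC-OFF and 211, 375 and 422 TPM in MYC-ON. These ranges overlapped, 25 of 28 pairs were higher in MYC-ON, and the difference was 0.56 ± 0.053, adjusted p = 3.63e-13. NUTF2, the import carrier of RAN-GDP, was at 184, 202 and 231 TPM in MYC-OFF and 159.7, 187 and 213 TPM in MYC-ON, and its difference of -0.11 ± 0.026, adjusted p = 1.89e-04 was under the size required for a call. RAN made up a median of 57.05% of the summed TPM of the 4 genes in MYC-OFF (54.3 to 61.04%) and of 69.2% in MYC-ON (67.5 to 74.03%), a share that restates the rise of RAN.

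**Figure D2:**
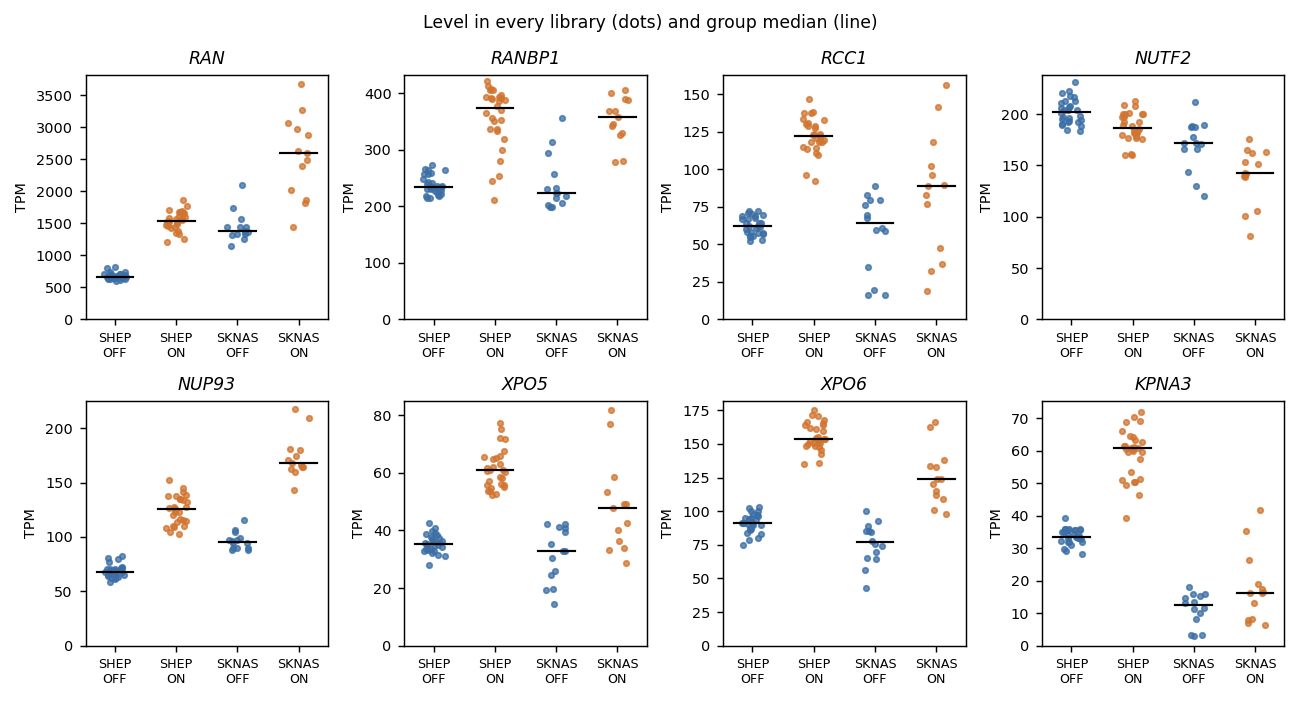
Level in TPM of RAN, RANBP1, RCC1, NUTF2, NUP93, XPO5, XPO6 and KPNA3 in every library (dots) of the 4 groups, with the group median as a line; blue is MYC-OFF and orange MYC-ON. SHEP MYC-ON libraries lie above all SHEP MYC-OFF libraries for RAN, RCC1, NUP93, XPO5 and XPO6, and for SKNAS this holds for NUP93 alone.

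The inner ring, the scaffold that joins the outer rings to the channel, was higher in 4 of 5 genes, where 33.0% of all genes were. NUP93, which anchors the channel nucleoporins, was at 58.7, 68.2 and 82.8 TPM in MYC-OFF and 102, 126 and 152 TPM in MYC-ON. The 2 groups did not overlap, and the difference was 0.85 ± 0.037, adjusted p = 1.11e-24. NUP155, which lies against the membrane, was at 16.6, 23.1 and 28.9 TPM in MYC-OFF and 26.1, 33.1 and 42.8 TPM in MYC-ON with a difference of 0.52 ± 0.049, adjusted p = 2.88e-13. The level of NUP35 was 14.5, 22.4 and 27.4 TPM in MYC-OFF and 23.7, 29.9 and 38.2 TPM in MYC-ON, and the difference was 0.43 ± 0.045, adjusted p = 1.12e-11. MYC-ON was higher in 27 of 28 pairs for each of these 2 genes, although their ranges overlapped. NUP205, a large scaffold protein of the same ring, was at 37.7, 47.1 and 54.3 TPM in MYC-OFF and 49.6, 61.6 and 85.3 TPM in MYC-ON and 0.42 ± 0.044 higher (adjusted p = 1.00e-11). The exception was its relative NUP188, which differed by -0.074 ± 0.070 (adjusted p = 0.33) and was higher in 14 of 28 pairs.

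The outer ring, whose Y-shaped complex faces both sides of the envelope, was higher in 5 of 7 genes, where 33.0% of all genes were. NUP37 was at 38.4, 49.5 and 59.1 TPM in MYC-OFF and 59.7, 72.8 and 86.96 TPM in MYC-ON, without overlap, and differed by 0.56 ± 0.033, adjusted p = 7.99e-20. NUP43 was at 12.3, 17.8 and 21.3 TPM in MYC-OFF and 16.6, 22.5 and 28.7 TPM in MYC-ON with a difference of 0.31 ± 0.045, adjusted p = 3.13e-08. The values of NUP107 were 36.6, 48.9 and 58.02 TPM in MYC-OFF and 46.6, 59.6 and 69.4 TPM in MYC-ON, and the difference was 0.29 ± 0.041, adjusted p = 2.28e-08. In these last 2 genes the ranges overlapped, and MYC-ON was higher in 24 and 25 of 28 pairs. NUP85 was at 33.8, 39.4 and 62.1 TPM in MYC-OFF and 34.6, 49.6 and 62.04 TPM in MYC-ON and 0.23 ± 0.055 higher (adjusted p = 2.63e-04), and NUP160 was at 18.9, 23.9 and 25.9 TPM in MYC-OFF and 21.7, 26.96 and 33.04 TPM in MYC-ON and 0.19 ± 0.035 higher (adjusted p = 4.61e-06). NUP133 at 0.12 and NUP98 at 0.11 were not called; NUP98 also serves in the channel. Over series means, the calls of NUP85 and NUP160 were lost.

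In the central channel, the genes of the repeat-bearing proteins NUP54 and NUP58 were higher, and that of their partner NUP62 had a less stable call as lower. NUP54 was at 24.2, 30.1 and 34.01 TPM in MYC-OFF and 41.4, 49.9 and 71.2 TPM in MYC-ON, without overlap, and differed by 0.76 ± 0.043, adjusted p = 1.43e-20. For NUP58, with 24.2, 28.9 and 36.4 TPM in MYC-OFF and 30.4, 37.8 and 45.9 TPM in MYC-ON, all 28 pairs were higher in MYC-ON and the difference was 0.35 ± 0.034, adjusted p = 1.17e-12. NUP62 was at 49.4, 61.3 and 72.7 TPM in MYC-OFF and 36.7, 57.4 and 73.5 TPM in MYC-ON, a wider range in MYC-ON on both sides of MYC-OFF, with a difference of -0.17 ± 0.054, adjusted p = 0.00493. This call was lost under rescaling, with the library median in the fit, over series means and without the second series. As described below, NUP62 in MYC-ON began above MYC-OFF and ended below it, so the direction depended on CT. The share of NUP62 in the summed TPM of the channel genes had a median of 51.3% in MYC-OFF (46.4 to 54.2%) and 37.9% in MYC-ON (25.96 to 46.1%), so its ranges did not overlap even though those of its level did. This share also goes down when NUP54 and NUP58 go up. NUP62CL, a gene related to the C-terminal part of NUP62, stayed at 0 to 0.372 TPM in MYC-OFF and 0 to 0.492 TPM in MYC-ON.

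Both basket genes among the members were higher, where 33.0% of all genes were. TPR, a basket gene that the name rule does not cover, was at -0.12 (adjusted p = 0.0797) and was not called. NUP50, which binds importin alpha and helps cargo release, was at 31.05, 37.2 and 55.7 TPM in MYC-OFF and 34.1, 51.6 and 60.8 TPM in MYC-ON with a difference of 0.39 ± 0.047, adjusted p = 2.79e-10, and NUP153, which anchors the basket, was at 24.2, 31.2 and 37.4 TPM in MYC-OFF and 28.3, 38.01 and 48.3 TPM in MYC-ON with a difference of 0.30 ± 0.046, adjusted p = 9.76e-08. MYC-ON was higher in 27 and 25 of 28 pairs. Among the cytoplasmic filament genes, NUP88 was at 42.04, 63.01 and 80.2 TPM in MYC-OFF and 48.6, 73.8 and 149 TPM in MYC-ON (0.28 ± 0.076, adjusted p = 8.23e-04) and NUP42, a docking site for the mRNA export factor GLE1, at 30.9, 35.1 and 40.8 TPM in MYC-OFF and 31.9, 40.9 and 57.9 TPM in MYC-ON (0.20 ± 0.040, adjusted p = 2.21e-05). Their ranges overlapped, and both calls were lost without the second series and over series means. NUP214, the partner of NUP88 in mRNA export, was at 13.6, 18.5 and 23.9 TPM in MYC-OFF and 10.9, 17.4 and 26.4 TPM in MYC-ON and differed by -0.082 ± 0.068, adjusted p = 0.268, and RANBP2, the large filament protein that binds RAN, by -0.072 ± 0.065 (adjusted p = 0.312). The membrane glycoprotein NUP210 was at 5.85, 9.76 and 14.6 TPM in MYC-OFF and 14.7, 19.9 and 29.3 TPM in MYC-ON, separate in all libraries, and differed by 0.95 ± 0.077, adjusted p = 3.20e-15.

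All 6 exportins were higher, where 33.0% of all genes were, with a median difference of 0.65. XPO5, the export receptor of microRNA precursors, was at 28.1, 35.3 and 42.5 TPM in MYC-OFF and 52.2, 60.8 and 77.2 TPM in MYC-ON, and the groups did not overlap (0.77 ± 0.041, adjusted p = 1.46e-21). XPO6, which exports actin with profilin, was at 75.2, 90.998 and 103 TPM in MYC-OFF and 135, 154 and 175 TPM in MYC-ON, again without overlap (0.76 ± 0.028, adjusted p = 1.12e-27). XPO4 was at 7.54, 11.97 and 17.1 TPM in MYC-OFF and 13.03, 20.2 and 23.8 TPM in MYC-ON, and all 28 pairs were higher in MYC-ON (0.68 ± 0.056, adjusted p = 7.51e-15). XPOT, the exporter of transfer RNA, was at 73.6, 88.9 and 112 TPM in MYC-OFF and 108, 137 and 181 TPM in MYC-ON, also with 28 of 28 pairs higher (0.62 ± 0.048, adjusted p = 9.07e-16). The change was smaller for XPO1, the general receptor of leucine-rich export signals, at 0.32 (adjusted p = 7.58e-09), and for XPO7, at 27.6, 36.8 and 45.5 TPM in MYC-OFF and 33.2, 40.5 and 49.02 TPM in MYC-ON (0.17 ± 0.034, adjusted p = 2.01e-05). The call for XPO7 was lost over series means.

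Import receptors were less uniform. Of 11 importin beta family members, 6 were higher and 1 was lower (33.0% and 38.9% of all genes), with a median of 0.18. IPO7, which carries ribosomal proteins and histones, was at 90.8, 109.7 and 125 TPM in MYC-OFF and 118, 146 and 191 TPM in MYC-ON (0.44 ± 0.039, adjusted p = 6.99e-14) and IPO5, another importer of ribosomal proteins, at 95.2, 122 and 138 TPM in MYC-OFF and 118, 162 and 193 TPM in MYC-ON (0.39 ± 0.041, adjusted p = 7.02e-12). MYC-ON was higher in 27 and 26 of 28 pairs. IPO4, an importer of histones, was at 69.2, 81.7 and 119 TPM in MYC-OFF and 28.9, 56.7 and 98.5 TPM in MYC-ON and differed by -0.67 ± 0.10, adjusted p = 3.24e-08. It was lower in MYC-ON in 26 of 28 pairs, and the ranges overlapped. TNPO1, the receptor of many RNA-binding proteins, was at 68.9, 97.04 and 111 TPM in MYC-OFF and 96.9, 116 and 145 TPM in MYC-ON (0.29 ± 0.044, adjusted p = 1.13e-07), IPO8 at 18.5, 23.02 and 27.3 TPM in MYC-OFF and 21.7, 26.6 and 33.3 TPM in MYC-ON (0.24 ± 0.042, adjusted p = 1.96e-06) and IPO13 at 14.9, 18.2 and 22.9 TPM in MYC-OFF and 15.4, 21.8 and 29.5 TPM in MYC-ON (0.18 ± 0.049, adjusted p = 0.00146). IPO11 was higher by 0.33 (adjusted p = 1.14e-05). The calls for TNPO1, IPO8 and IPO13 were lost over series means, and that for IPO13 also without the second series, where the difference was 0.074. KPNB1, the receptor that works with importin alpha and the most abundant of the family, differed by -0.017 ± 0.048 (adjusted p = 0.759), and TNPO2 at -0.056, TNPO3, the receptor of splicing factors, at -0.024 and IPO9 at -0.095 were not called either. With the library median in the fit, KPNB1 differed by 0.17 (adjusted p = 0.000359).

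Importin alpha adaptors, which link classical import signals to KPNB1, were higher in 2 of 6 genes, a share like the 33.0% of all genes called higher. KPNA3 was at 28.4, 33.5 and 39.4 TPM in MYC-OFF and 39.2, 60.7 and 71.9 TPM in MYC-ON, and all 28 pairs were higher in MYC-ON (0.79 ± 0.041, adjusted p = 6.84e-22). KPNA1 was at 42.7, 54.8 and 66.9 TPM in MYC-OFF and 65.8, 78.6 and 92.5 TPM in MYC-ON, likewise with 28 of 28 pairs higher (0.51 ± 0.036, adjusted p = 2.78e-17). The values of KPNA4, the closest relative of KPNA3, were 18.4, 21.4 and 23.7 TPM in MYC-OFF and 19.3, 23.3 and 28.6 TPM in MYC-ON, and its difference of 0.13 ± 0.038, adjusted p = 0.00275 was under the required size. KPNA5 at 2.74, 4.56 and 5.78 TPM in MYC-OFF and 3.28, 4.61 and 7.41 TPM in MYC-ON (0.078 ± 0.054, adjusted p = 0.184) and KPNA6 at 20.8, 29.7 and 40.2 TPM in MYC-OFF and 18.6, 27.7 and 38.98 TPM in MYC-ON (-0.12 ± 0.046, adjusted p = 0.0157) were not called. KPNA2, the adaptor typical of dividing cells, differed by -0.0064 (adjusted p = 0.937), a value that turned positive when libraries were rescaled (0.040) or the library median entered the fit (0.17, adjusted p = 0.0472). KPNA2 made up most of the family in every group: its median share of the summed importin alpha TPM was 64.3% in SHEP MYC-OFF (57.9 to 69.8%) and 58.4% in MYC-ON (46.6 to 63.6%). The share of KPNA3 went from 8.42% (6.80 to 10.04%) to 12.9% (11.4 to 16.1%), and these ranges did not overlap.

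**Figure D3:**
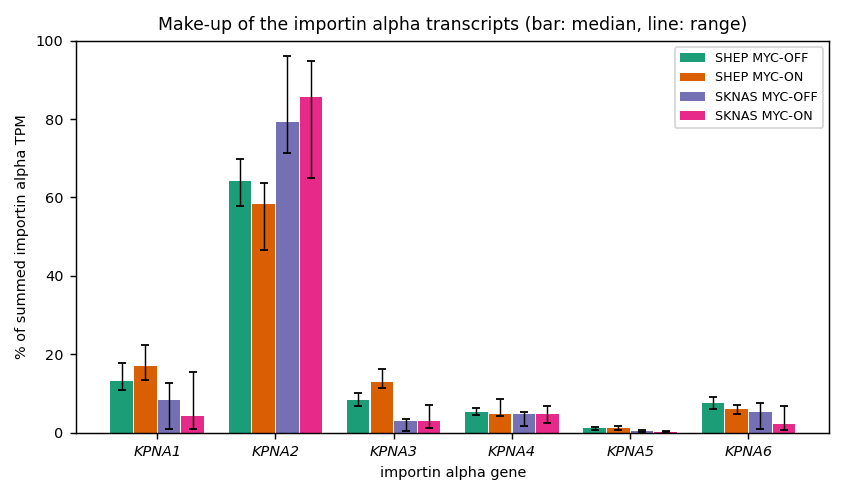
Share of each importin alpha gene in the summed importin alpha TPM, in percent, for the 4 groups; bars are group medians and lines run from the lowest to the highest library. KPNA2 holds the largest share in all 4 groups, and KPNA3 goes from 8.42% to 12.9% between SHEP MYC-OFF and MYC-ON.

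In SKNAS, fewer transport genes passed the test and the count depended on how the uneven libraries were treated. With TPM as deposited, 10 of 49 members were higher, against 13.7% of 13886 genes, and 2 were lower, against 34.4%. At 0.66 or more, 4 were higher (6.97% of all genes) and 1 was lower (23.8%). The median difference was -0.14 over the members and -0.29 over all genes. When libraries were rescaled by the median of ratios, the all-gene median moved to 0.032, and 21 members were higher and 1 was lower, against 3831 and 3314 of the 13886 genes. Adding the library median as a covariate gave 31 higher and 0 lower, against 3924 and 3620 of all genes, whose median was 0.013; the 1903 genes called higher with TPM as deposited thus grew in number as well. Among the 11 libraries with a median of at least 4.1 (9 MYC-OFF and the MYC-ON libraries of CT32 and CT52, a choice made after the data were seen and fitted without CT), 30 were higher and 0 lower, against 2887 and 3047 of all genes. Leaving out the 7 libraries under 3.3 gave 8 higher and 1 lower, against 1758 and 3961.

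The members higher in SKNAS were RAN, RANBP1, NUP93, NUP205, NUP54, NUP85, XPO5, XPO6, IPO11 and KPNA4, and the first 9 of these were also higher in SHEP. They are 27.3% of the 33 members higher in SHEP and 90.0% of the 10 in SKNAS, and 33 of all 49 members tested were higher in SHEP. NUP93 was at 87.8, 95.6 and 116 TPM in MYC-OFF and 143, 168 and 217 TPM in MYC-ON. It was the only member whose SKNAS groups did not overlap, a pattern of 2.32% of all genes (2.09% in the other direction), and it differed by 0.83 ± 0.088, adjusted p = 2.41e-06. RAN was at 1142, 1375 and 2095 TPM in MYC-OFF and 1439.7, 2599.8 and 3666 TPM in MYC-ON, with 12 of 13 pairs matched by CT higher in MYC-ON and a difference of 0.78 ± 0.12, adjusted p = 1.13e-04. XPO6 was at 43.2, 76.99 and 100.4 TPM in MYC-OFF and 97.8, 124 and 167 TPM in MYC-ON (0.72 ± 0.13, adjusted p = 4.91e-04), and XPO5 at 14.6, 32.8 and 42.3 TPM in MYC-OFF and 28.6, 47.9 and 81.6 TPM in MYC-ON (0.61 ± 0.17, adjusted p = 0.00813). The ranges of both genes overlapped, and 12 and 11 of 13 pairs were higher in MYC-ON. NUP205 was at 62.97, 74.3 and 185 TPM in MYC-OFF and 90.4, 147 and 248 TPM in MYC-ON (0.76 ± 0.17, adjusted p = 0.00165), and RANBP1 at 198, 224 and 357 TPM in MYC-OFF and 278, 359 and 407 TPM in MYC-ON (0.54 ± 0.12, adjusted p = 0.00139). IPO11 was higher in 13 of 13 pairs (0.55, adjusted p = 6.68e-04). NUP54 (0.46), NUP85 (0.54) and KPNA4 (0.34, adjusted p = 0.0488) completed the list.

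RAN, RANBP1, NUP93, NUP205, NUP54, XPO5, XPO6 and IPO11 passed under all 7 other treatments of SKNAS. NUP85 was at 0.19 among libraries of median at least 4.1 and at 0.28 without the 7 low libraries, and did not pass in either. KPNA4 missed the threshold in 4 of the other treatments, with adjusted p up to 0.075. The 2 lower members were IPO4, at 11.5, 64.5 and 114 TPM in MYC-OFF and 8.13, 35.6 and 66.5 TPM in MYC-ON (-0.80 ± 0.25, adjusted p = 0.0157), and NUTF2, at 121, 172 and 212 TPM in MYC-OFF and 81.6, 143 and 176 TPM in MYC-ON (-0.30 ± 0.11, adjusted p = 0.0324). MYC-ON was lower in 10 and 12 of 13 pairs. Neither passed with the library median in the fit (-0.21 for IPO4 and -0.18 for NUTF2), and NUTF2 turned positive under rescaling (0.077).

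Members differed in how they followed the library median of SKNAS, and several moved by more between libraries of a condition than between conditions. KPNB1 lay at 43.01 to 50.9 TPM in the 3 MYC-OFF libraries of median under 3.3 and at 264 to 503 TPM in the 9 of at least 4.1. NUP188 lay at 1.68 to 3.93 and 21.7 to 40.2 TPM in the same libraries, and KPNA3 at 3.12 to 3.36 and 11.3 to 17.995 TPM. These genes were low where the median was low. NUP205 went the other way, from 126 to 185 TPM in the low libraries to 62.97 to 83.3 TPM in the others. NUP93 was nearly level, at 94.7 to 116 and 87.8 to 106 TPM.

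At a matched library median, MYC-ON levels were above MYC-OFF levels for most of these genes. In the 2 MYC-ON libraries of median at least 4.1, KPNA3 was at 35.4 to 41.9 TPM, NUP188 at 51.4 to 51.8 TPM and KPNB1 at 548 to 552 TPM, each above the 9 MYC-OFF libraries of that range. NUP93 was at 164 to 217 TPM there, and RAN at 2479.8 to 2883 TPM against 1318 to 1745 TPM in MYC-OFF. With the library median as a covariate, the difference was 1.21 for KPNA3 (adjusted p = 1.85e-09), 1.19 for RCC1 (2.98e-07), 0.77 for NUP188 (1.20e-05) and 0.72 for KPNA1 (9.30e-05), none of which passed with TPM as deposited. Of the 31 members higher in that fit, 25 were among the 33 higher in SHEP, which is 75.8% of the SHEP members and 80.6% of the SKNAS members. As 33 of 49 tested members were higher in SHEP and 31 of 49 in this fit, much of the overlap follows from these counts alone. The SHEP calls came from TPM as deposited, and the covariate gave 40 higher there. Whether the library median reflects RNA quality, depth or the cells was not tested, and its group median was lower in MYC-ON (3.57) than in MYC-OFF (4.13), so its part in the SKNAS counts and that of the condition cannot be told apart.

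**Figure D4:**
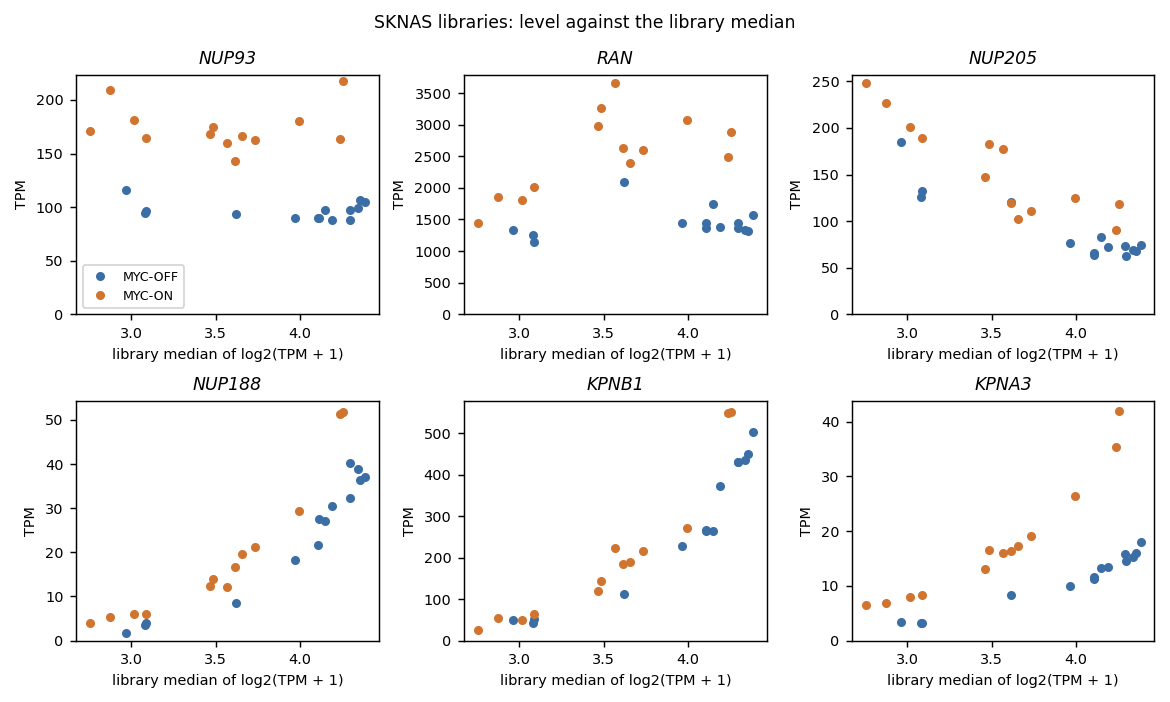
Level in TPM of NUP93, RAN, NUP205, NUP188, KPNB1 and KPNA3 in each of the 27 SKNAS libraries against the median of log2(TPM + 1) over genes in that library; blue is MYC-OFF and orange MYC-ON. KPNB1, NUP188 and KPNA3 climb with the median, NUP205 declines with it, and NUP93 separates the conditions at every median.

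The size of the change in each line was compared through an interaction term fitted to the 83 libraries, given as the SKNAS difference minus the SHEP difference. Of 50 members, 2 had a larger difference in SKNAS, against 13.5% of all genes, and 23 a smaller one, against 38.0%. Taking both directions, members were called about as often as all genes. At 0.66 or more, 0 were larger (5.02% of all genes) and 9 smaller (16.2%). Both counts of smaller differences include NUP210, which entered through SHEP alone. These counts followed the library treatment closely: 7 and 11 after rescaling, 13 and 4 with the library median as a covariate, 0 and 8 with only the second SHEP series and 0 and 6 with only the first. All-gene counts of these fits are not set beside them, so they show only how the member calls depend on the treatment. NUP58 and IPO8 kept their call and sign under all 8 alternatives of this fit, and RAN lost it under rescaling alone (-0.11, adjusted p = 0.434).

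NUP58 in SKNAS was at 3.88, 16.6 and 23.6 TPM in MYC-OFF and 3.41, 9.40 and 28.1 TPM in MYC-ON (SKNAS difference -0.44, interaction -0.79, adjusted p = 1.78e-04). IPO8 was at 6.52, 24.8 and 36.4 TPM in MYC-OFF and 6.54, 12.6 and 38.5 TPM in MYC-ON (SKNAS difference -0.52, interaction -0.76, adjusted p = 1.17e-04). Both genes overlapped widely between the SKNAS conditions, 4 of 13 pairs were higher in MYC-ON for each, and neither SKNAS difference was called. The interaction of RAN was -0.40, adjusted p = 1.44e-04, and RAN was higher with active N-MYC-ER in both lines. NUP210, among the 23, lay under 1 TPM in every SKNAS library, at 0.0721, 0.494 and 0.801 TPM in MYC-OFF and 0.0434, 0.168 and 0.519 TPM in MYC-ON. On the log2(TPM + 1) scale such a level leaves little room for a change, so its interaction of -1.20 restates its difference in SHEP, and nothing is read from it.

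The other exportins and importins with a smaller difference in SKNAS were not called there. XPO4 was at 0.942, 4.38 and 7.60 TPM in MYC-OFF and 1.24, 3.22 and 12.7 TPM in MYC-ON (SKNAS difference -0.10, interaction -0.78, adjusted p = 3.53e-04), XPOT at 20.5, 96.5 and 147 TPM in MYC-OFF and 25.6, 73.2 and 212 TPM in MYC-ON (-0.14, interaction -0.76, adjusted p = 0.0012) and XPO7 at 8.09, 38.7 and 56.9 TPM in MYC-OFF and 5.96, 23.6 and 66.9 TPM in MYC-ON (-0.46, interaction -0.63, adjusted p = 0.00507). For all 3, the highest MYC-ON library lay above the highest MYC-OFF library, and the ranges overlapped. IPO7 was at 15.96, 87.2 and 127 TPM in MYC-OFF and 14.03, 50.4 and 201 TPM in MYC-ON (-0.40, interaction -0.83, adjusted p = 0.00124), TNPO1 at 14.3, 72.5 and 121 TPM in MYC-OFF and 16.5, 48.4 and 191 TPM in MYC-ON (-0.28, interaction -0.57, adjusted p = 0.0249) and IPO13 at 5.83, 27.6 and 32.7 TPM in MYC-OFF and 14.8, 20.3 and 36.2 TPM in MYC-ON (-0.17, interaction -0.34, adjusted p = 0.0346). Under the library median covariate, none of these 6 interactions kept its call and sign, and those of XPO7 (0.015) and TNPO1 (0.17) turned positive. That of TNPO1 was then called in the opposite direction (adjusted p = 0.0487).

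Of the 6 importin alpha genes, 3 had a smaller difference in SKNAS, where 38.0% of all genes did. The interactions of KPNA2 (0.080), KPNA3 (-0.19) and KPNA4 (0.21) were not called. KPNA1 was at 4.73, 35.1 and 57.3 TPM in MYC-OFF and 6.16, 22.3 and 94.1 TPM in MYC-ON (-0.25, interaction -0.76, adjusted p = 0.00779), KPNA6 at 6.67, 22.2 and 34.99 TPM in MYC-OFF and 4.71, 11.98 and 38.7 TPM in MYC-ON (-0.54, interaction -0.42, adjusted p = 0.0488) and KPNA5 at 0.389, 1.29 and 2.47 TPM in MYC-OFF and 0.356, 0.754 and 2.42 TPM in MYC-ON (-0.22, interaction -0.29, adjusted p = 0.0349). The SKNAS ranges of these 3 genes spanned several-fold within each condition and overlapped. The interactions of KPNA1 (0.056) and KPNA6 (0.18) turned positive with the library median in the fit, and that of KPNA6 was then called in the opposite direction (adjusted p = 0.0311). In the Ran cycle, RCC1 was at 16.03, 64.2 and 88.5 TPM in MYC-OFF and 19.005, 88.5 and 156 TPM in MYC-ON (0.53, interaction -0.42, adjusted p = 0.0394), which became 0.13 with the covariate, and NUTF2 had an interaction of -0.18, adjusted p = 0.019, which became 0.096 under rescaling.

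Scaffold and channel nucleoporins and NUP153 of the basket made up the rest. In SKNAS, NUP107 was at 24.1, 68.8 and 86.2 TPM in MYC-OFF and 20.5, 51.6 and 96.8 TPM in MYC-ON (-0.24, interaction -0.53, adjusted p = 6.64e-04), NUP160 at 9.32, 36.2 and 50.5 TPM in MYC-OFF and 8.36, 21.1 and 53.7 TPM in MYC-ON (-0.49, interaction -0.68, adjusted p = 0.00107) and NUP153 at 7.89, 30.04 and 47.2 TPM in MYC-OFF and 9.03, 17.3 and 54.7 TPM in MYC-ON (-0.41, interaction -0.71, adjusted p = 0.00106). NUP37 was at 29.2, 56.4 and 67.7 TPM in MYC-OFF and 39.3, 66.6 and 85.3 TPM in MYC-ON (0.21, interaction -0.34, adjusted p = 0.00177), NUP43 at 12.5, 18.04 and 22.96 TPM in MYC-OFF and 13.1, 17.1 and 27.5 TPM in MYC-ON (0.022, interaction -0.29, adjusted p = 0.00564) and NUP155 at 20.2, 26.5 and 37.6 TPM in MYC-OFF and 24.4, 28.3 and 50.7 TPM in MYC-ON (0.18, interaction -0.34, adjusted p = 0.0135). All 6 ranges overlapped between the SKNAS conditions. NUP54 was at 9.89, 18.6 and 25.3 TPM in MYC-OFF and 13.9, 25.04 and 48.5 TPM in MYC-ON (interaction -0.30, adjusted p = 0.0191) and NUP62 at 15.3, 67.8 and 95.9 TPM in MYC-OFF and 16.3, 35.5 and 77.7 TPM in MYC-ON (-0.59, interaction -0.42, adjusted p = 0.0381; 0.13 with the covariate). The differences larger in SKNAS than in SHEP were those of NUP205 (interaction 0.34, adjusted p = 0.0148) and NUP85 (interaction 0.31, adjusted p = 0.0201), and neither interaction passed with the covariate. NUP85 in SKNAS was at 49.7, 60.1 and 69.2 TPM in MYC-OFF and 62.1, 85.2 and 153 TPM in MYC-ON.

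The remaining members had SKNAS differences that were not called. These were -0.32 for RANBP2, -0.37 for NUP214, 0.18 for NUP88, -0.041 for NUP42, 0.18 for NUP133, -0.21 for NUP98, -0.23 for NUP188, 0.19 for NUP35, 0.015 for NUP50 and -0.35 for NUP62CL among the nucleoporins. Among the receptors and adaptors they were -0.54 for KPNB1, 0.13 for IPO5, -0.16 for IPO9, -0.48 for TNPO2, -0.44 for TNPO3, 0.13 for XPO1, 0.074 for KPNA2 and 0.59 for KPNA3. The sign of many of these values turned with the library treatment. KPNA3, at 3.12, 12.4 and 17.99 TPM in MYC-OFF and 6.498, 16.3 and 41.9 TPM in MYC-ON, came close to the threshold with TPM as deposited (adjusted p = 0.057).

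The lines also differed in the levels of these genes without active N-MYC-ER. In the 42 MYC-OFF libraries, 14 of 50 members were higher in SKNAS, against 33.5% of 15942 genes, and 21 were lower, against 45.6%. At 0.66 or more, 5 were higher (20.0% of all genes) and 15 lower (31.1%). Both higher counts include NUP62CL and both lower counts include NUP210. Each of these entered through the line where it is high, so neither adds to a difference of the set. Those lower in SKNAS included 5 of 6 importin alpha genes, whereas the 6 of 11 importin beta family members and 3 of 6 exportins that were lower made up shares near that of all genes. KPNA3 was at 28.4 to 39.4 TPM with a median of 33.5 in SHEP and at 3.12 to 17.99 TPM with a median of 12.4 in SKNAS (-1.66, adjusted p = 2.07e-12), and IPO5 at 95.2 to 138 TPM with a median of 122 and at 12.5 to 71.2 TPM with a median of 47 (-1.56, adjusted p = 1.29e-11). Neither gene's ranges overlapped. XPO4 (-1.45), KPNA5 (-1.27), TNPO3 (-1.22), NUP50 (-1.18), NUP188 (-1.09), KPNA1 (-1.05) and NUP58 (-1.12) were also lower in SKNAS by over 1 log2 unit. NUP210 was at 5.85 to 14.6 TPM with a median of 9.76 in SHEP and at 0.0721 to 0.801 TPM with a median of 0.494 in SKNAS; having passed the level through SHEP, it had to differ.

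In the other direction, RAN was at 1142 to 2095 TPM with a median of 1375 in SKNAS against 604 to 824 TPM with a median of 664 in SHEP (1.08, adjusted p = 8.56e-18), and these ranges did not overlap. NUP88 was at 90.7 to 185 TPM with a median of 128 in SKNAS against 42.04 to 80.2 TPM with a median of 63.01 in SHEP (1.06, adjusted p = 1.65e-12). NUP62CL was at 2.17 to 14.95 TPM in SKNAS and at most 0.372 TPM in SHEP, and likewise had to differ, having passed through SKNAS. Inner ring genes were higher in SKNAS in 4 of 5 cases, where 33.5% of all genes were, with NUP205 at 0.86 and NUP188, at -1.09, as the exception. The levels of NUP205 and NUP188 followed the SKNAS library median in opposite directions. Their calls kept their sign without the 3 low MYC-OFF libraries. KPNA2 was 0.52 higher, and its median share of importin alpha TPM was 79.2% in MYC-OFF and 85.5% in MYC-ON of SKNAS. With the library median as a covariate the counts became 28 higher and 17 lower, and without the 3 low MYC-OFF libraries 23 higher and 18 lower. XPO5, called lower at -0.23, was then at 0.010 and -0.062. All-gene counts of these 2 fits are not set beside the member counts, which show only how the calls depend on the treatment.

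Levels drifted over the time course of SHEP in MYC-ON. As a linear slope over CT in log2 change per 24 h, with an intercept for each series, 26 of 49 members fell in MYC-ON, where 37.3% of all genes fell, and 0 rose, where 19.9% did. In MYC-OFF, 2 members rose (RCC1 at 0.12 and NUP37 at 0.12), against 5.71% of all genes, and 4 fell (XPOT at -0.15, KPNA6 at -0.13, NUP58 at -0.12 and KPNA1 at -0.10), against 10.0%. None of these 6 MYC-OFF calls was kept with either series left out. The slope itself differed between conditions in 20 members, in a comparison added after the data were seen: 19 fell more in MYC-ON, against 27.3% of all genes, and XPOT less (0.15, adjusted p = 0.0494), against 16.1%. The XPOT value turned to -0.044 (adjusted p = 0.684) without the second series, and its call was lost with no filter and without an intercept for each series. CT is also time in culture and time after 4OHT.

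IPO4 fell most in MYC-ON (-0.65, adjusted p = 6.14e-08). Its mean over CT24 to CT32 and over CT68 to CT76 went from 74.1 to 30.7 TPM in the first series and from 72.8 to 32.2 TPM in the second, whereas in MYC-OFF it went from 96.2 to 98.9 and from 94.6 to 91.7 TPM. KPNA2 followed (-0.46, adjusted p = 1.16e-08), and its means went from 322 to 179 TPM in the first series and from 329 to 171 TPM in the second, against 265 to 291 and 269 to 288 TPM in MYC-OFF. For KPNA2, with a difference near 0 over the whole course, MYC-ON thus began above MYC-OFF and ended below it. NUP62 (-0.38, adjusted p = 2.27e-10) went from 68.1 to 41.8 TPM in the first series and from 71.99 to 40.3 TPM in the second, against 59.9 to 64.6 and 63.7 to 67.2 TPM in MYC-OFF. NUP188 (-0.44), TNPO2 (-0.38), NUP214 (-0.33), KPNB1 (-0.30), RANBP2 (-0.26), RANBP1 (-0.25) and KPNA6 (-0.25) had slopes from -0.44 to -0.25 per 24 h. The other 16 were IPO5, IPO11, IPO13, TNPO3, KPNA3, NUP42, NUP43, NUP50, NUP58, NUP85, NUP133, NUP153, NUTF2, RCC1, XPO4 and XPO6, with slopes from -0.22 to -0.069.

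Of the 8 members whose SHEP groups did not overlap, RCC1 and XPO6 were among those that fell in MYC-ON, and the others had no called fall there. RAN was at -0.038 per 24 h (adjusted p = 0.449), NUP93 at -0.021 (adjusted p = 0.691), XPO5 at -0.022 (adjusted p = 0.637), NUP210 at 0.011 (adjusted p = 0.874), NUP37 at 0.074 (adjusted p = 0.0837) and NUP54 at 0.080 (adjusted p = 0.191). The count of falling members was 17 after rescaling, 12 with the library median in the fit, 12 with only the second series and 35 with only the first. In these last fits, 12 and 24 of the 26 calls were kept. All-gene counts of these fits are not set beside the member counts, which show only how the calls depend on the fit. IPO11 (0.0039) turned positive with only the second series, and KPNA3 (0.0021) and NUP153 (0.019) did with the library median in the fit.

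**Figure D5:**
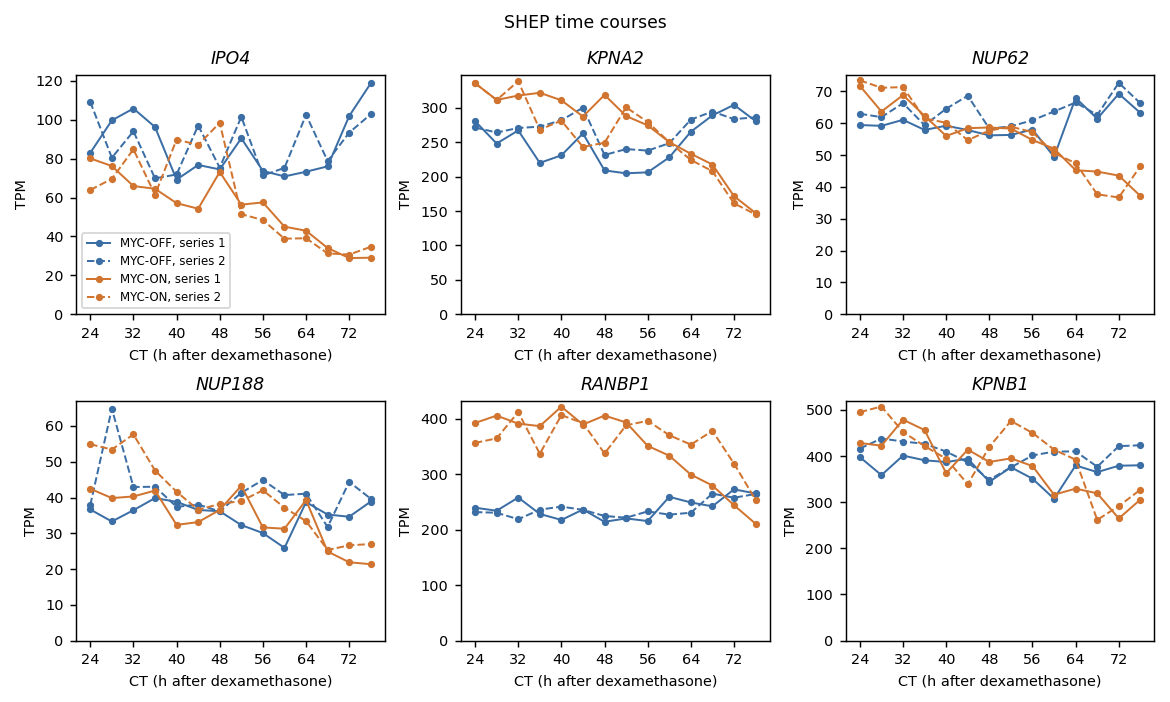
Level in TPM of IPO4, KPNA2, NUP62, NUP188, RANBP1 and KPNB1 in SHEP against CT, in hours after dexamethasone; blue is MYC-OFF, orange MYC-ON, full lines the first series and broken lines the second. In MYC-ON the levels of IPO4, KPNA2 and NUP62 decline in both series, whereas the MYC-OFF lines of these genes do not.

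Cell cycle genes moved over the same hours. All 10 S phase genes and 9 of 10 G2/M genes fell in SHEP MYC-ON, where 37.3% of all genes fell. Their median slopes were -0.56 and -0.39 per 24 h. The summed TPM of the S phase genes went from 1027 to 487 in the first MYC-ON series and from 1077 to 525 in the second, and in MYC-OFF from 754 to 919 and from 779 to 905. For the G2/M genes the sums went from 751 to 454 and from 816 to 451 in MYC-ON, and from 576 to 732 and from 615 to 711 in MYC-OFF. Their part in the slopes of the transport genes was not tested.

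No transport gene had a called 24 h rhythm in SHEP, in a test that called very few genes at all. The cosine fit with a linear trend for each series, tested by limma, called 0 members in MYC-OFF, where 13 of 14362 genes (0.0905%) were called, and 0 in MYC-ON, where 3 (0.0209%) were; the difference of the rhythm between conditions was called for 0 members and for 0 genes in all. At an unadjusted p under 0.05 there were 5 members in MYC-OFF (10.4% of all genes), 6 in MYC-ON (10.7%) and 4 for the difference (4.94%). The MYC-OFF and MYC-ON counts are near the all-gene shares, so their members are named only as a description. In MYC-OFF these were NUP37 (amplitude 0.11 on the log2 scale, peak at CT 18.2 modulo 24 h, unadjusted p = 0.00118), NUP35 (0.14), IPO4 (0.16), KPNA5 (0.14) and XPO6 (0.067). In MYC-ON they were TNPO2 (amplitude 0.14, unadjusted p = 0.00364), NUP160 (0.11), XPO4 (0.13), KPNB1 (0.13), NUP155 (0.11) and NUP107 (0.099). All other settings of the fit also called 0 members. The study used another algorithm, ECHO, and reported far more oscillating genes in MYC-OFF. The 0 calls here therefore do not show that no member oscillates.

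Pore and transport genes that the name rule does not cover included some of the larger changes. Of 21 such genes, 10 were higher and 2 were lower in SHEP (33.0% and 38.9% of all genes), with a median difference of 0.14. CSE1L, the export receptor that returns importin alpha to the cytoplasm, was at 57.2, 71.7 and 81.3 TPM in MYC-OFF and 110.1, 158 and 184 TPM in MYC-ON (1.122 ± 0.047, adjusted p = 1.95e-25), and AHCTF1, which seeds pore assembly on chromatin, at 15.01, 19.1 and 23.5 TPM in MYC-OFF and 32.5, 38.8 and 63.4 TPM in MYC-ON (1.07 ± 0.058, adjusted p = 2.03e-21). Both had no lower pair among 28. In SKNAS, with TPM as deposited in all libraries, 4 of the 21 were higher, CSE1L among them (0.66, adjusted p = 8.41e-04), and 2 were lower, where 13.7% and 34.4% of all genes were. Over time in SHEP MYC-ON, 16 of the 21 fell and 1 rose, where 37.3% and 19.9% of all genes did.

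Adaptors that load mRNA for export were higher in 10 of 19 cases in SHEP and lower in 0 (33.0% and 38.9% of all genes), with a median of 0.16, led by PCID2 (0.92, adjusted p = 3.53e-28) and THOC3 (0.62, adjusted p = 7.75e-20). In SKNAS, 13 of 19 were higher and 0 lower (13.7% and 34.4% of all genes), with a median of 0.38. Of 10 S phase genes, 2 were higher and 2 lower in SHEP, with MCM5 at -0.74 and MCM6 at 0.61. Of 10 G2/M genes, 5 were higher and 1 lower, with PLK1 at 0.46 and TOP2A at -0.30. Among all genes tested in SHEP, 33.0% were higher and 38.9% lower. In SKNAS, 1 S phase gene was higher and 1 lower, and 2 G2/M genes were higher and 2 lower (13.7% and 34.4% of all genes). Of 10 mesenchymal markers, 7 were lower in SHEP MYC-ON, where 38.9% of all genes were, led by FN1 (-2.24) and COL1A1 (-1.84). PRRX1 (1.61) was higher, where 33.0% of all genes were. VIM (-0.011) and CD44 (0.10) were not called, so the list did not move as 1. The summed TPM of the 10 markers lay between 6687 and 8601 in MYC-OFF libraries and between 4491 and 5690.1 in MYC-ON libraries. Among adrenergic markers, GATA2 (1.25) and HAND2 (0.72) were higher in SHEP, and in SKNAS GATA2 was higher whereas PHOX2A, GATA3, HAND2, CHGA and ISL1 were lower. The part of these shifts in the transport gene values was not tested. All SKNAS values of these lists are given only with TPM as deposited, so their dependence on the uneven libraries is not shown.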

How the data were processed

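RNA of SHEP and SKNAS N-MYC-ER cells was sequenced with poly-A selection. Per the study's methods, the authors quantified reads with Salmon 1.3.0 on the GRCh38 transcriptome (Gencode 35) and summed them to genes with tximport, with symbols from Ensembl 101; the values they deposited are TPM, so reads lost to filters or shared between near-identical copies cannot be traced. Pseudogene entries of members summed to at most 4.62% of the gene (IPO5 in SKNAS). No 2 libraries were identical. The study tested counts with time and condition as terms; here TPM were tested on log2(TPM + 1), a scale that understates changes of low genes, with limma 3.58.1 in R 4.3.3, with CT as a factor, over genes with a mean of at least 1 TPM in the line or lines fitted. Slopes and 24 h cosine terms had an intercept per series (and a linear trend for the cosine). P-values were adjusted by Benjamini-Hochberg over all genes tested. Calls needed an adjusted p of at most 0.05 and, between groups, a log2 difference of at least 0.15 (0.66 for larger changes). Scripts were tested on simulated data. SHEP series numbers come from the labels; deviations of series 1 from series 2 correlated at 0.489 between conditions over 14362 genes, which are not independent, and with 2 series this does not establish a shared day. Every member is named; full values are given for the Ran cycle, for the 3 largest SHEP changes in each other role, and for members called in the interaction. For other lists at least the 2 largest SHEP changes are named. The members and lists were chosen with earlier results of these data known. Alternatives were a pseudocount of 0.1, no filter, median-of-ratios rescaling, the library median as covariate, limma-trend, a replicate block, series means, leaving out each SHEP series, and leaving out SKNAS libraries of median under 3.3; the slope difference and the choice of SKNAS libraries of median at least 4.1 were added after seeing the data. Promoters and their coordinates are RefSeq's on GRCh38.p14. A second SKNAS series and an osteosarcoma line were not analysed here. Some adrenergic markers are not reported here.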

Additional observations from a re-analysis of the deposited data

Results flagged for a closer look

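The change of 25 transport genes with active N-MYC-ER differed between SKNAS and SHEP in the interaction test of limma over 83 libraries, adjusted over all 15942 genes: 2 were larger in SKNAS, where 13.5% of all genes were, and 23 were smaller, where 38.0% were. Taking both directions, members were called about as often as all genes. The values are the SKNAS difference minus the SHEP difference on log2(TPM + 1). With the library median as a covariate, these kept their call and sign: NUP58 (-0.79, -0.19 with the covariate), IPO8 (-0.76, -0.25 with the covariate) and RAN (-0.40, -0.40 with the covariate). A further 19 with a smaller difference in SKNAS did not: IPO7 (-0.83), XPO4 (-0.78), KPNA1 (-0.76), XPOT (-0.76), NUP153 (-0.71), NUP160 (-0.68), XPO7 (-0.63), TNPO1 (-0.57), NUP107 (-0.53), NUP62 (-0.42), RCC1 (-0.42), KPNA6 (-0.42), IPO13 (-0.34), NUP37 (-0.34), NUP155 (-0.34), NUP54 (-0.30), KPNA5 (-0.29), NUP43 (-0.29) and NUTF2 (-0.18). Of these, TNPO1 (0.17) and KPNA6 (0.18) were called in the opposite direction with the covariate. A larger difference in SKNAS was found for NUP85 (0.31) and NUP205 (0.34), and neither passed with the covariate. NUP210 (-1.20) passed the level through SHEP alone and lay under 1 TPM in every SKNAS library, so its value restates its SHEP difference. SKNAS had a single time series, so the lines differ in replication as well.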

How the results depend on the processing

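In SHEP, 33 members were higher under every alternative pseudocount, filter and trend setting; the count was 36 under rescaling, 40 with the library median covariate, 25 over series means, and 30 to 33 without either series. Lower members numbered 2, against 1 under rescaling, 1 with the covariate, 1 over series means and 3 without either series. The fit with the replicate series as a block gave 33 higher and 2 lower members, so the pairing changed no call in the MYC comparison of SHEP. In SKNAS, 21 members were higher and 1 lower under rescaling, 31 and 0 with the covariate, 8 and 1 without the 7 low libraries, and 30 and 0 among libraries of median at least 4.1; the members' median difference turned to 0.206, 0.393 and 0.518 under rescaling, covariate and the last choice. Interaction counts were 7 larger and 11 smaller under rescaling, 13 and 4 with the covariate, and 0 and 6 to 8 without either SHEP series. Between lines in MYC-OFF, 28 were higher with the covariate and 23 without the low libraries. MYC-OFF slopes gave 4 rising members under rescaling, 5 rising and 1 falling with the covariate, 2 falling with no filter, and 0 to 1 rising and 0 falling without either series. MYC-ON slopes gave 2 rising and 17 falling under rescaling, 1 and 12 with the covariate, and 1 to 4 rising and 12 to 35 falling without either series. For the slope difference, members above were 0 with no filter, 2 under rescaling, 3 with the covariate, 0 with no replicate block and 0 to 2 without either series, and members below were 10 to 19 without either series. Where all-gene counts are not set beside them, these member counts show only how the calls depend on the processing. The causes were not tested.

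Single members whose sign turned were, on the log2 scale, as follows. In SHEP these were, under rescaling, KPNA2 0.040, KPNB1 0.029 and TNPO3 0.022; with the covariate, IPO9 0.014, KPNA2 0.17, KPNA6 0.050, KPNB1 0.17, NUP188 0.14, NUP214 0.14, RANBP2 0.16, TNPO2 0.11 and TNPO3 0.11. Without either series the ranges were IPO9 0.037 to -0.23, KPNA2 -0.10 to 0.088, KPNA6 -0.27 to 0.028 and TNPO3 -0.061 to 0.014. In SKNAS under rescaling they were IPO13 0.20, IPO9 0.21, KPNA1 0.11, NUP107 0.13, NUP188 0.14, NUP42 0.33, NUP98 0.15, NUTF2 0.077, RANBP2 0.025, TNPO1 0.087, XPO4 0.20 and XPOT 0.23. With the covariate they were IPO13 0.17, IPO7 0.46, IPO8 0.055, KPNA1 0.72, KPNA2 -0.12, KPNA5 0.088, KPNA6 0.14, KPNB1 0.51, NUP107 0.15, NUP153 0.27, NUP160 0.19, NUP188 0.77, NUP214 0.21, NUP42 0.30, NUP58 0.26, NUP62 0.039, NUP62CL 0.23, NUP98 0.42, RANBP2 0.35, TNPO1 0.56, TNPO2 0.39, TNPO3 0.57, XPO4 0.52, XPO7 0.29 and XPOT 0.60. Without the 7 low libraries they were NUP42 0.00504, NUP50 -0.15 and NUP98 0.029. Among libraries of median at least 4.1 they were IPO13 0.14, IPO7 0.75, IPO8 0.32, IPO9 0.064, KPNA1 1.02, KPNA5 0.32, KPNA6 0.32, KPNB1 0.57, NUP107 0.26, NUP153 0.46, NUP160 0.30, NUP188 0.68, NUP214 0.24, NUP42 0.45, NUP58 0.48, NUP62CL 0.067, NUP98 0.61, RANBP2 0.56, TNPO1 0.92, TNPO2 0.48, TNPO3 0.52, XPO4 0.89, XPO7 0.43 and XPOT 0.82. For the interaction they were KPNA1 0.056, KPNA6 0.18, NUP62 0.13, RCC1 0.13, TNPO1 0.17 and XPO7 0.015 with the covariate and NUTF2 0.10 under rescaling. Between lines it was XPO5 0.010 with the covariate. MYC-ON slopes turned for IPO11 -0.33 to 0.0039 without either series and for KPNA3 0.0021 and NUP153 0.019 with the covariate, and the slope difference for XPOT -0.044 to 0.35 without either series. TPM holds no read depth, so the precision of low members such as KPNA5 and NUP210 in SKNAS is unknown, and their fold is damped by the pseudocount.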
